A study of Mus musculus with 11 samples.

Results

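The replication-dependent histone genes of the mouse were followed in RNA of liver CD4 T cells with and without the autophagy gene Atg5. They are the genes whose GENCODE M21 symbol begins with Hist1h, Hist2h, Hist3h or Hist4h. This rule uses names only and found 70 of the 56748 genes in the count table. Of these, 6 encode linker histone H1, 20 histone H2A, 19 histone H2B, 12 histone H3 and 13 histone H4. By symbol, the Hist1 cluster on chromosome 13 holds 56 of them and the Hist2 cluster on chromosome 3 holds 10. The Hist3 cluster on chromosome 11 holds 3 and Hist4 on chromosome 6 holds 1. The pseudogene Hist1h2al, counted with Hist1, lies at chr13:51202727-51203065, away from the other Hist1 genes. In GENCODE, 67 are protein-coding, 2 are processed pseudogenes and 1 is an unprocessed pseudogene.

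Both groups came from mice injected with CCl4, a liver toxin that causes fibrosis, for 5 weeks. Autophagy-deficient CD4 T cells (ATG5TLymph-/-) gave 6 libraries and wild-type cells (ATG5fl/fl) gave 5. The design text speaks of flow-sorted CD4 T cells from liver, and the extraction protocol of fixed, paraffin-embedded tissue sections, for the same libraries. Libraries were made with a stranded total RNA kit. No source used here gives the promoter that drives the deletion, the age of the mice or whether animals were pooled, and p-values measure the spread between libraries. Genotypes are those of the labels.

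In dividing cells the bulk of new histone is made during S phase, when DNA is copied, from these clustered genes without introns. Their mRNAs are the metazoan mRNAs that end in a conserved stem-loop in place of a poly(A) tail. Stem-loop binding protein (Slbp) holds that hairpin, the U7 small nuclear RNP guides the cut just after it, and the mRNA is degraded when DNA synthesis stops. Methods that select poly(A) RNA miss most of such transcripts, and total RNA kits with random priming do not depend on the tail. Histones H2A, H2B, H3 and H4 form the core of the nucleosome, and H1 binds the DNA between cores. T cells divide after activation, and these mRNAs are then at their highest in the cells that copy DNA.

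The stem-loop itself was searched for in the GENCODE M21 transcripts, as a pattern of 16 bases with a stem of 6 pairs and a loop of 4 bases. It was present in 46 of the 70 genes (65.7%) and in 62 of 21834 other coding genes (0.284%). A match is a description of the annotated transcript, and a transcript without it may end before the hairpin. The forms found are shown because the stem differs between H4 and the other classes. They are written 5′ to 3′ as DNA, with the loop in capitals.
Form in 10 H2A, 8 H2B, 5 H3 and 3 H1 genes, Hist1h2ab and Hist1h3d among them: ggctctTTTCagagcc
Form in 3 H3, 2 H2B and 1 H1 genes: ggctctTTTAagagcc
Form in 1 H2A gene, Hist2h2ac: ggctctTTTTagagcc
Form in 1 H3 gene: ggctctTCTTagagcc
Form in 7 H4 genes, Hist1h4d and Hist4h4 among them: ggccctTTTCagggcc
Form in 2 H4 genes: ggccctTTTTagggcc
Form in 1 H4 gene: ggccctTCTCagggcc
Form in 2 H4 genes: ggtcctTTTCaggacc
The stem began with ggctct in all 34 H1, H2A, H2B and H3 genes with a match. Among the 12 H4 genes with a match it began with ggccct in 10 and with ggtcct in 2. The loops TTTC and TTTT occurred with both kinds of stem.

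Promoters also differed by class. RefSeq (GRCm38.p6) gave a start for 62 of the 70 genes, and 250 bases before it were searched on both strands for 3 motifs. ATTTGCAT is the octamer bound by Oct-1, CCAAT is the box bound by NF-Y, and TATAAA is a TATA box. The octamer was in 13 of 34 H2A and H2B promoters and in 0 of 28 promoters of H1, H3 and H4, against 1.6% of 32851 RefSeq promoters. CCAAT was in 6 of 6 H1, 18 of 18 H2A, 16 of 16 H2B, 8 of 10 H3 and 3 of 12 H4 promoters, against 33.8% of all. TATAAA was in 4 of 6 H1, 7 of 18 H2A, 8 of 16 H2B, 4 of 10 H3 and 6 of 12 H4 promoters, against 12.4% of all. H2A and H2B genes that lie head to head share promoter bases, so these counts are not independent. Below are the 150 bases before the start of 5 genes. They are 1 gene each of H1, H2A, H3 and H4, and Hist3h2a, an H2A gene outside the Hist1 cluster whose level differed little between genotypes. Capitals mark the 3 motifs on either strand.
Hist1h1b, chr13:21780626-21780775, minus strand: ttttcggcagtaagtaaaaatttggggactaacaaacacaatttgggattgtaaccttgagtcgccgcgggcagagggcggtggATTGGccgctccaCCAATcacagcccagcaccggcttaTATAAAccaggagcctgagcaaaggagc
Hist1h2ab, chr13:23750938-23751087, plus strand: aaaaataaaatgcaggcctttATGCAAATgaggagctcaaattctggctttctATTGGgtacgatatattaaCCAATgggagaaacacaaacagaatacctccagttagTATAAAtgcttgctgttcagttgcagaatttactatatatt
Hist3h2a, chr11:58954535-58954684, plus strand: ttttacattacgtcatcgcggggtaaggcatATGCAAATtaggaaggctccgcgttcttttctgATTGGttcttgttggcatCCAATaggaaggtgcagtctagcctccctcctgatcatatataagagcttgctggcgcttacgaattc
Hist1h3d, chr13:23575613-23575762, plus strand: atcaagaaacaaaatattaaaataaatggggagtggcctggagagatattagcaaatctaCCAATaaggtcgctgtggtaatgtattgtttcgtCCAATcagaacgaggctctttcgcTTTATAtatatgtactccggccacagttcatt
Hist1h4d, chr13:23581418-23581567, plus strand: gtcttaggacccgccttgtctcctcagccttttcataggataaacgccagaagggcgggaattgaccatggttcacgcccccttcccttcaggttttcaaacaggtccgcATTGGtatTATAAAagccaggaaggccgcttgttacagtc
Hist1h2ab and Hist3h2a both carry the octamer, read on the opposite strand as ATGCAAAT, and their levels differed between genotypes by unlike amounts, as given with H2A.

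The libraries held 30699408 to 47564440 counts, and 3 counts corresponded to 0.0679 to 0.0968 CPM. CPM is the count of a gene relative to the sequencing depth (counts per 1000000), scaled here by TMM factors. The histone genes took 0.0838% to 0.182% of the counts of a library. Atg5 itself was at 15.2 to 22.5 CPM in the Atg5-deficient libraries and at 13.4 to 21.1 CPM in the wild-type libraries (log2 fold change 0.18, SE 0.14, adjusted p = 0.488 by edgeR). Whole-gene counts include exons outside a deleted part, so this level does not check the genotype labels. Summed CD4 T cell markers ran from 2924 to 3845 CPM and from 2991 to 3146 CPM in the respective groups, and CD8 markers from 4.21 to 6.47 CPM over all libraries. Hepatocyte markers ran from 44.1 to 795 CPM in the Atg5-deficient and from 31.9 to 496 CPM in the wild-type libraries, B cell markers from 11.6 to 31.7 CPM and from 10.9 to 18.9 CPM, and their part in the results was not tested. The sum of 4 NK cell markers reached 84.7 CPM in Atg5-deficient replicate 4, of which Eomes alone gave 83.1 CPM, and at most 17.2 CPM in the wild-type libraries. The NK receptor genes Klrb1c and Klri2 had negative log2 fold changes, -1.49 and -1.10, and Ncr1 was not tested. In bulk RNA, fewer cells of a type and less RNA per cell cannot be told apart.

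Levels of single histone genes spanned more than 3 orders of magnitude on a log scale of CPM per kilobase of exon. The linker histone gene Hist1h1c was the highest of all, at a level of 249 CPM per kb over the 11 libraries. The core gene with the highest level was the H2A gene Hist1h2ak at 135 CPM per kb, followed by the H2B gene Hist2h2bb at 81.0 CPM per kb. The highest H4 gene was Hist1h4d at 38.6 CPM per kb and the highest H3 gene Hist1h3e at 31.3 CPM per kb. The same gene led each class when the shortest coding transcript was used as the length. Lengths depend on the annotated transcript: Hist1h1d, with 7425 exonic bases, came below Hist1h1e (64.7 CPM per kb) and Hist1h1b (44.1 CPM per kb) although its count was above that of Hist1h1b.

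**Figure D1:**
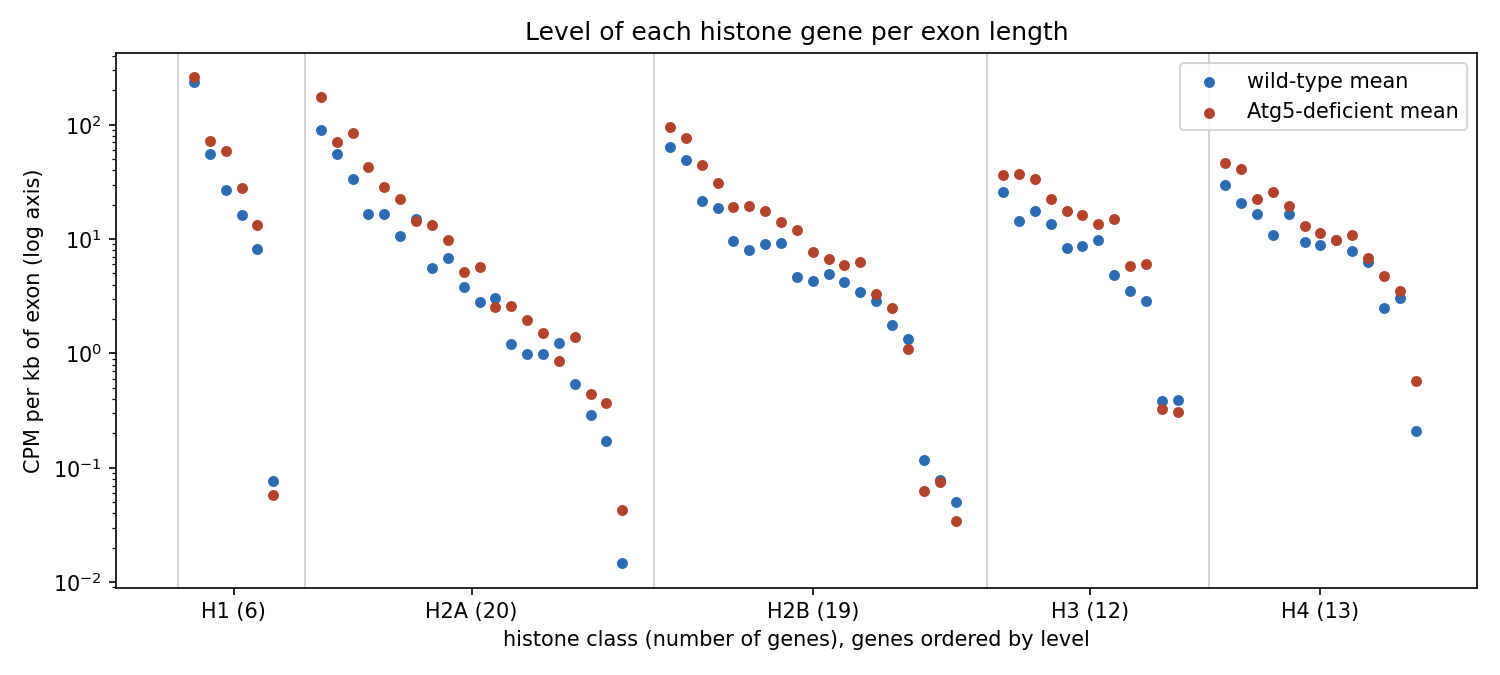
Mean level of each of the 70 histone genes in CPM per kilobase of exon (log axis), by class and ordered by level, in the 5 wild-type (blue) and 6 Atg5-deficient (red) libraries. Hist1h1c at the left stands at 249 CPM per kb over all libraries, and the last genes at the right of each class, 1 of H1 and of H4 and 2 or 3 of the others, lie under 1 CPM per kb.

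Genes active in testis were near the floor of the counts. Hist1h1t, the testis H1, had 27 counts over all libraries, 12 in Atg5-deficient and 15 in wild-type libraries. Hist1h2aa had 5 counts and Hist1h2ba, which encodes the testis H2B, had 6. These 3 genes failed the filter on low counts, as did Hist1h2ao (55 counts), Hist1h2ap (76), Hist1h2bq (64), Hist1h2br (78) and Hist1h4m (69). The remaining 62 genes passed the filter and were tested, 5 of H1, 17 of H2A, 16 of H2B, 12 of H3 and 12 of H4.

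In the Atg5-deficient libraries, 11 of the 62 tested histone genes (17.7%) had a higher level and 0 had a lower level at an adjusted p under 0.05 by edgeR's quasi-likelihood test. Over all 17987 genes tested, 4.43% were called higher and 2.41% lower. At an unadjusted p under 0.05, 37 of the 62 were higher and 0 lower, against 12.7% and 10.6% of all genes. The log2 fold change was above 0 in 56 of the 62, against 49.7% of all genes. Its median over the 62 was 0.72, beside -0.003 over all genes. The called genes were Hist1h1a and Hist1h1b of H1, Hist1h2ab, Hist1h2ae, Hist1h2af, Hist1h2ai and Hist1h2ak of H2A, Hist1h2bj and Hist1h2bk of H2B, and Hist1h3b and Hist1h3d of H3. All 11 lie in the Hist1 cluster, while other settings also called genes of other clusters.

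**Figure D2:**
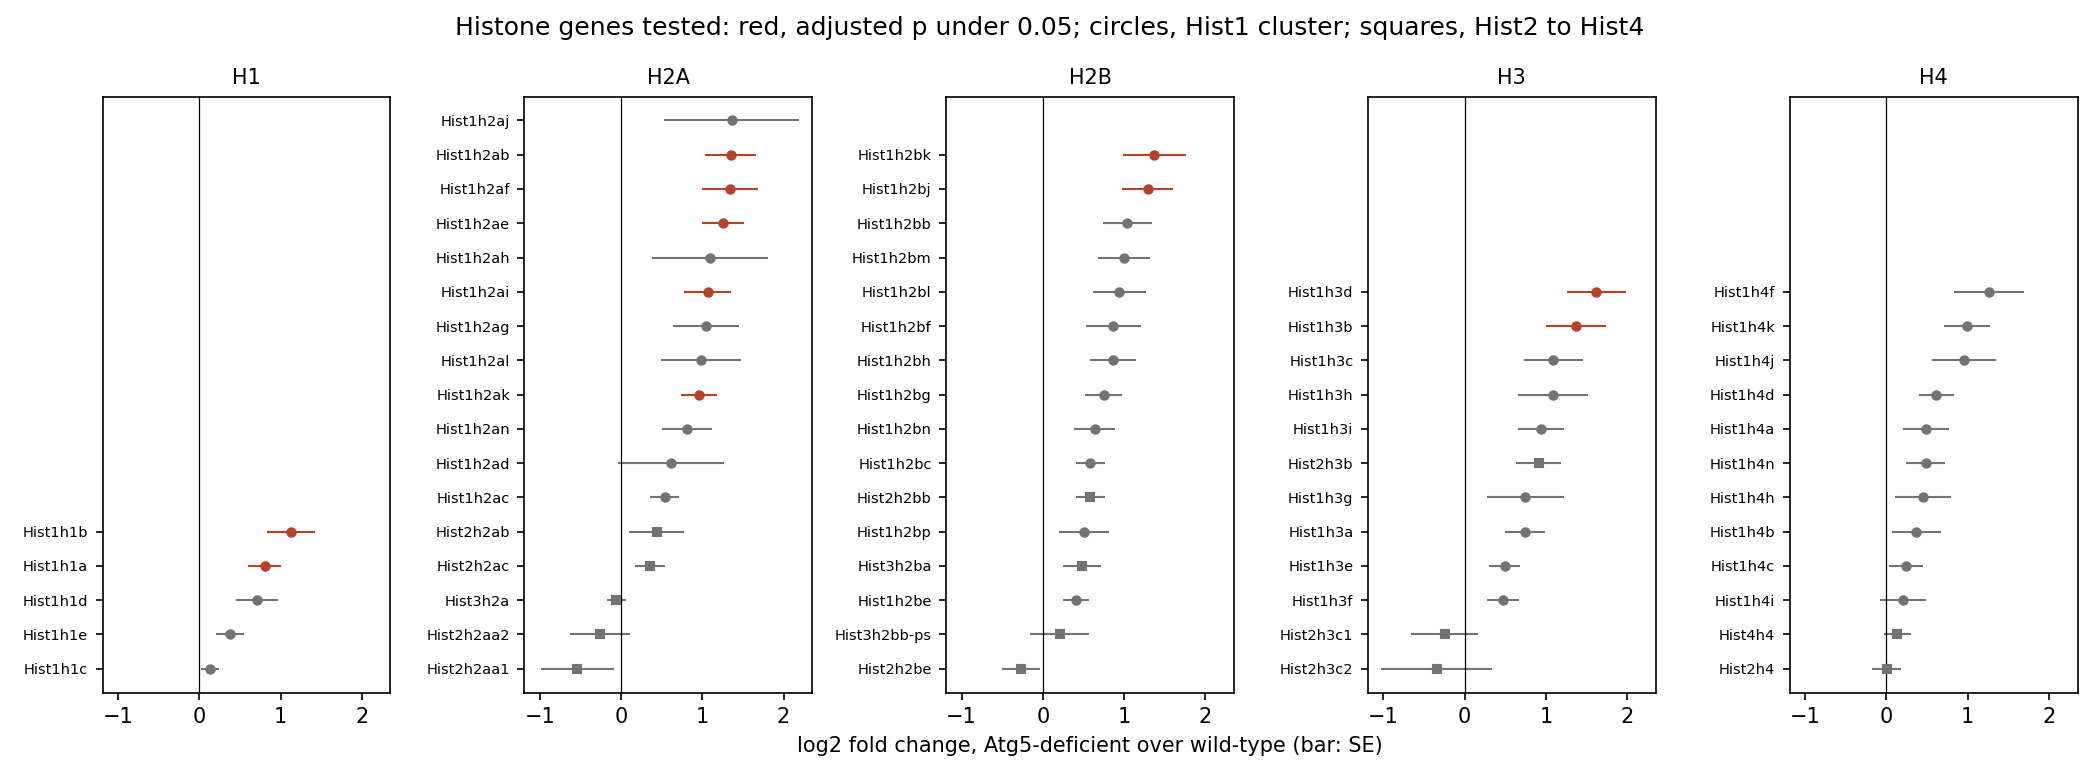
Log2 fold change of each of the 62 tested histone genes, Atg5-deficient over wild-type, with bars of 1 SE, by class and ordered by size. The 11 genes with an adjusted p under 0.05 (red) all lie in the Hist1 cluster (circles), 48 of 48 Hist1 genes lie right of 0, and 5 of the 10 Hist2 genes (squares) lie left of it.

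The groups overlapped for every one of these genes. For 0 of the 62 did the lowest Atg5-deficient library exceed the highest wild-type library, against 2.78% of all genes tested. The reverse held for 0 of the 62 and for 2.08% of all genes. Atg5-deficient replicate 3 was the lowest of its group for 56 of the 62 and stood at or below the highest wild-type library for 60. With that library set aside, 28 of the 62 had the remaining 5 Atg5-deficient values above the highest wild-type value. The share over all genes was not computed for this smaller set. In the wild-type group, replicate 2 was the highest for 52 of the 62. Setting both aside left 44 of the 62 with no overlap, again with no share over all genes computed. Both libraries were picked by their order in these same values, and leaving them out moves the groups apart by itself. The counts of 28 and 44 therefore describe these libraries and say nothing about genotype. Atg5-deficient replicate 5 was the highest of all 11 libraries for 39 genes and wild-type replicate 3 the lowest for 29.

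**Figure D3:**
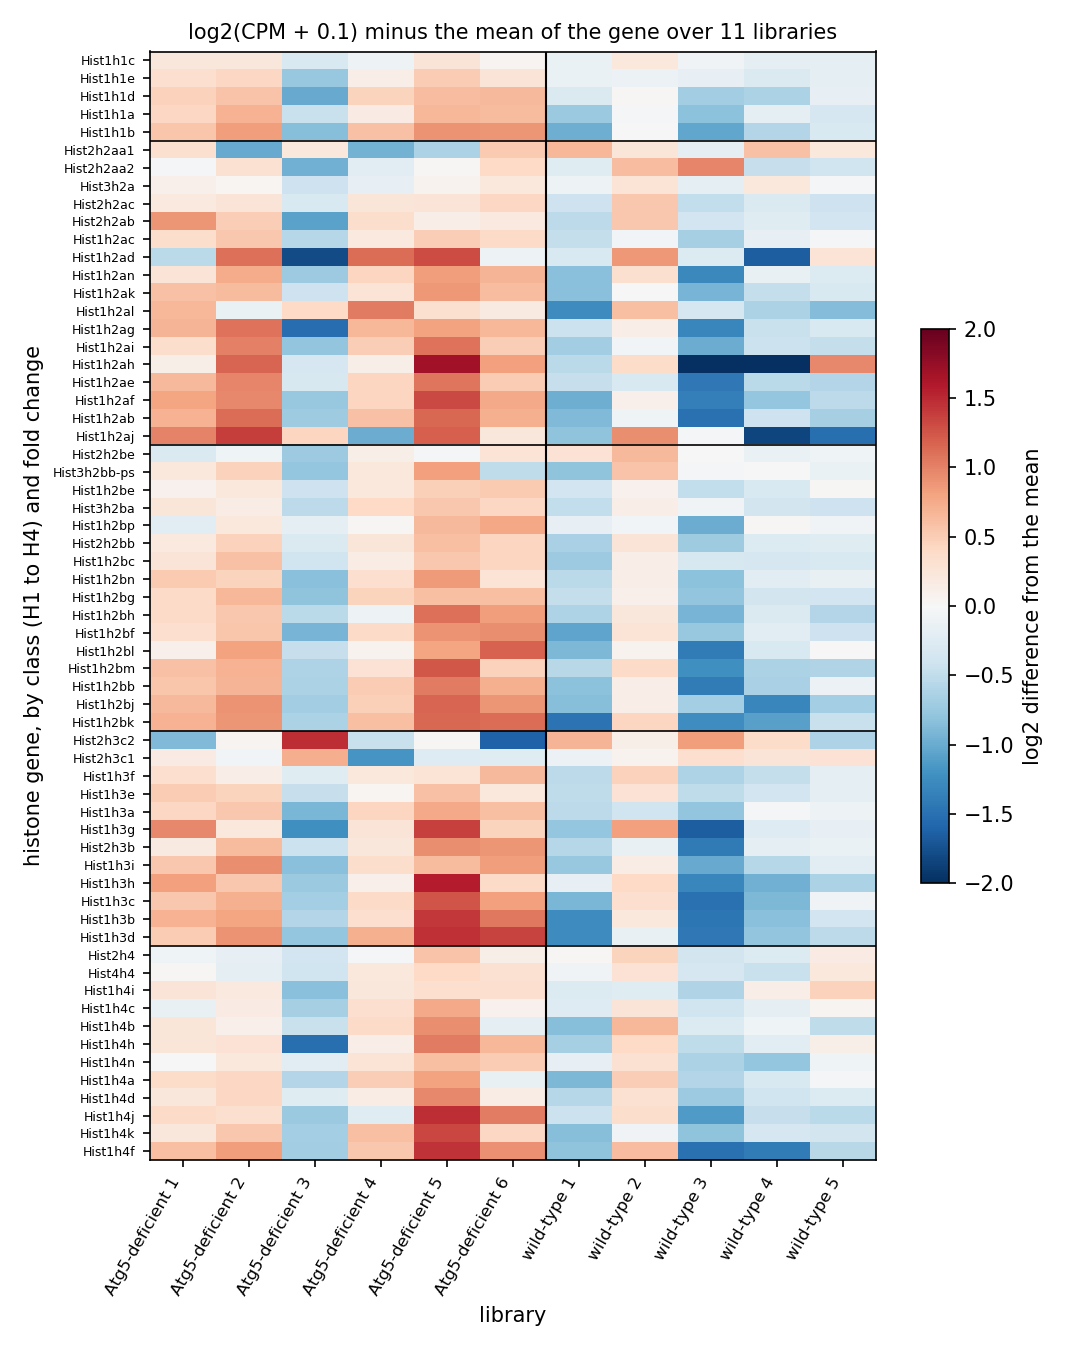
Log2(CPM + 0.1) of each of the 62 tested histone genes (rows, by class and fold change) in each library (columns), minus the mean of the gene over the 11 libraries. Colours end at a difference of 2 in either direction. The column of Atg5-deficient replicate 3 is blue and that of wild-type replicate 2 red for most genes, unlike the other libraries of their groups.

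The number of calls turned on the libraries in the fit. Without Atg5-deficient replicate 3, 33 histone genes were called higher, and without wild-type replicate 2, 24 were, beside 7.96% and 3.92% of all genes tested in those fits. The count was 4, 2, 6, 4 and 5 without Atg5-deficient replicates 1, 2, 4, 5 and 6, and 1, 2, 1 and 3 without wild-type replicates 1, 3, 4 and 5. In the same order, 2.9%, 2.56%, 2.81%, 3.59% and 4.94% of all genes tested were called higher, and 2.18%, 3.16%, 2.31% and 2.31%. The histone counts of 1 and 2 are near these shares. In any of the 11 fits, 0 histone genes were called lower. Of the 11 called genes, Hist1h2ae was called in all 11 of these fits, Hist1h3d in 8, Hist1h2ak and Hist1h2ab in 7, Hist1h2bj in 4, Hist1h1a in 3 and each of the remaining 5 in 2. In the 8 libraries with consecutive library numbers, 5 Atg5-deficient and 3 wild-type, 0 histone genes were called, beside 0.462% of all genes called higher. DESeq2 on all 11 libraries called 28 of the histone genes higher, beside 7.75% of all genes, and limma-voom with sample weights called 40, beside 10.8%. In the fit of 8 libraries the fold changes of the 11 called genes stayed positive, and their adjusted p-values by edgeR ran from 0.0778 to 0.269.

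H1 genes had the highest summed level of the 5 classes in CPM. CPM is not scaled to length, so this order of classes is not one of transcript number. Hist1h1c and Hist1h1d have 1560 and 7425 exonic bases, and the core gene Hist1h2ak has 393. The summed H1 level was 772.8, 801.0, 448.3, 657.9, 828.1 and 740.8 CPM in Atg5-deficient replicates 1 to 6 and 549.9, 677.9, 548.1, 521.8 and 552.1 CPM in wild-type replicates 1 to 5. The groups overlapped, and 4 of the 6 Atg5-deficient libraries exceeded the highest wild-type value. The means were 708 ± 140 CPM (SD, n = 6) and 570 ± 61.6 CPM (SD, n = 5), a ratio of 1.24. Hist1h1c, which encodes the H1.2 linker histone, made up 53.8% to 69.4% of this sum and was at 405 ± 59.9 CPM against 370 ± 43.8 CPM (log2 fold change 0.13, SE 0.11, adjusted p = 0.519 by edgeR). Without it the H1 sum was 303 ± 85.0 CPM against 200.2 ± 22.4 CPM, and the log2 ratio went from 0.31 to 0.60.

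Hist1h1b, which encodes H1.5, ranged from 15.9 through a median of 47.6 to 54.0 CPM in the Atg5-deficient libraries. It was at 14.5, 28.7, 13.97, 19.1 and 23.4 CPM in the wild-type libraries. Only Atg5-deficient replicate 3, at 15.9 CPM, fell within the wild-type range. The log2 fold change was 1.13 (SE 0.30, adjusted p = 0.0437 by edgeR). Hist1h1a, which encodes H1.1, ranged from 11.5 through 22.7 to 25.6 CPM and was at 9.33, 15.4, 8.85, 13.8 and 12.5 CPM in the wild-type libraries. Again replicate 3 was the only Atg5-deficient library within the wild-type range, and the log2 fold change was 0.80 (SE 0.21, adjusted p = 0.0350 by edgeR). Every window of 50 bases (100%) in both transcripts was unique among GENCODE transcripts of other genes. Hist1h1d and Hist1h1e, which encode H1.3 and H1.4, did not pass, with log2 fold changes of 0.71 (adjusted p = 0.120 by edgeR) and 0.38 (adjusted p = 0.200).

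The sum of the 20 H2A genes was 263.0, 293.4, 136.6, 232.1, 320.9 and 276.2 CPM in the Atg5-deficient libraries and 130.5, 217.9, 116.5, 157.7 and 158.0 CPM in the wild-type libraries. Replicate 3 was the only Atg5-deficient library within the wild-type range. The means were 254 ± 64.6 CPM (SD, n = 6) and 156 ± 38.9 CPM (SD, n = 5). Of 17 tested H2A genes, 5 were called higher and 14 had a positive fold change, with a median of 0.96 on the log2 scale.

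Hist1h2ak, the H2A gene with the highest level, ranged from 36.5 through a median of 73.7 to 89.4 CPM in the Atg5-deficient libraries and was at 27.2, 48.2, 25.7, 34.8 and 39.5 CPM in the wild-type libraries. The genotypes differed by 0.96 on the log2 scale (SE 0.22, adjusted p = 0.0252 by edgeR). Hist1h2ae had the smallest adjusted p of the histone genes, at 0.0125 by edgeR (log2 fold change 1.26, SE 0.26). It ranged from 4.84 through 9.20 to 12.9 CPM and was at 4.42, 4.93, 2.20, 4.19 and 4.03 CPM in the wild-type libraries. Replicate 3 at 4.84 CPM lay just under wild-type replicate 2 at 4.93 CPM, and the call held in all 11 fits that leave out 1 library. Hist1h2ab, whose promoter with the octamer is printed with the motifs, was at 19.99 ± 7.17 CPM against 7.88 ± 2.73 CPM (log2 fold change 1.35, SE 0.32, adjusted p = 0.0267). Hist1h2af was at 33.7 ± 13.1 CPM against 13.3 ± 5.42 CPM (log2 fold change 1.34, adjusted p = 0.0424) and Hist1h2ai at 8.81 ± 3.41 CPM against 4.22 ± 1.05 CPM (log2 fold change 1.07, adjusted p = 0.0406). Each of those calls was kept in 2 of the 11 fits that leave out 1 library. Only 20.3% of the 50-base windows of Hist1h2af and 9.88% of those of Hist1h2ai were unique, so their reads could have been split with near-identical H2A genes. The unique share was 42.0% for Hist1h2ab, 47.7% for Hist1h2ak and 56.8% for Hist1h2ae.

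Among H2A genes outside the Hist1 cluster, 0 were called by edgeR on all libraries, against 4.43% of all genes called higher. Hist3h2a ranged from 23.5 through 32.8 to 36.3 CPM in the Atg5-deficient libraries and was at 29.2, 38.0, 27.9, 36.3 and 30.9 CPM in the wild-type libraries. The log2 difference was -0.06 (SE 0.12, adjusted p = 0.822 by edgeR), and the groups overlapped throughout. Its 708 exonic bases shared with Trim17 on the same strand leave some of its count uncertain. Hist2h2ac was at 36.4 ± 5.58 CPM against 28.6 ± 9.99 CPM (log2 fold change 0.35, adjusted p = 0.273 by edgeR), with wild-type replicate 2 at 46.3 CPM as the highest of all libraries. Without that library it was called (log2 fold change 0.60, adjusted p = 0.0165), as it was by limma-voom on all libraries (adjusted p = 0.00812). Leaving out the highest wild-type value raises the fold change by itself. Of the 11 fits that leave out 1 library, only that without wild-type replicate 2 called it.

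The sum of the 19 H2B genes was 203.8, 230.3, 110.1, 196.7, 272.8 and 237.3 CPM in the Atg5-deficient libraries and 106.2, 183.3, 97.2, 124.6 and 136.8 CPM in the wild-type libraries. As for H2A, replicate 3 was the only Atg5-deficient library within the wild-type range. The means were 208.5 ± 55.3 CPM (SD, n = 6) and 129.6 ± 33.8 CPM (SD, n = 5). Of 16 tested H2B genes, 2 were called higher, 12 had an unadjusted p under 0.05 with a positive fold change, and the median log2 fold change was 0.69. The summed H2A level was 1.22 ± 0.0548 times the H2B level in Atg5-deficient libraries and 1.21 ± 0.0419 times in wild-type libraries.

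Hist1h2bj ranged from 3.49 through 9.80 to 12.9 CPM in the Atg5-deficient libraries and was at 3.11, 6.26, 3.53, 2.25 and 3.52 CPM in the wild-type libraries (log2 fold change 1.29, SE 0.31, adjusted p = 0.0276 by edgeR). Hist1h2bk ranged from 2.14 through 5.90 to 7.60 CPM and was at 1.15, 4.55, 1.36, 1.54 and 2.45 CPM in the wild-type libraries (log2 fold change 1.37, SE 0.39, adjusted p = 0.0490). For both genes replicate 3 was the only Atg5-deficient library within the wild-type range. Of the 50-base windows, 40.6% were unique for Hist1h2bj and 25.8% for Hist1h2bk, so their reads could have been split with near-copies. The H2B gene with the highest level, Hist2h2bb, was at a mean of 36.4 ± 7.24 CPM under Atg5 deficiency, beside 24.3 ± 6.89 CPM. It was not called by edgeR (adjusted p = 0.0701, log2 fold change 0.59) but was by DESeq2 (adjusted p = 0.0197) and limma-voom (adjusted p = 0.00455). It was also called by edgeR without Atg5-deficient replicate 3 (adjusted p = 0.0188) or wild-type replicate 2 (adjusted p = 0.0187). Leaving out either of these libraries moves the groups apart by itself. On the same strand, 226 of its exonic bases belong also to the noncoding RNA Gm42743, which had a log2 fold change of 0.62 (adjusted p = 0.0699). Hist1h2bn (log2 fold change 0.64, adjusted p = 0.141) and Hist1h2be (log2 fold change 0.41, adjusted p = 0.132) did not pass, and 496 exonic bases of Hist1h2be belong also to Hist1h1e on the same strand.

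The sum of the 12 H3 genes was 142.7, 151.5, 68.2, 122.6, 190.7 and 166.8 CPM in the Atg5-deficient libraries and 60.9, 114.7, 52.9, 71.1 and 84.6 CPM in the wild-type libraries. The means were 140.4 ± 42.1 CPM (SD, n = 6) and 76.8 ± 24.3 CPM (SD, n = 5), a ratio of 1.83 and the highest of the 5 classes. Replicate 3 was again the only Atg5-deficient library under the highest wild-type value. All 12 genes were tested, 2 were called higher, and the median log2 fold change was 0.83.

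Hist1h3d had the largest fold change of the tested histone genes. It ranged from 6.04 through a median of 18.2 to 28.8 CPM in the Atg5-deficient libraries and was at 4.29, 9.39, 3.78, 5.99 and 7.16 CPM in the wild-type libraries. The log2 fold change was 1.62 (SE 0.36, adjusted p = 0.0236 by edgeR). Hist1h3b was at 23.0 ± 9.39 CPM against 8.93 ± 4.41 CPM (log2 fold change 1.37, SE 0.37, adjusted p = 0.0491). Of its 50-base windows, 39.6% were unique. Hist1h3e and Hist1h3f, with high levels among H3 genes, had log2 fold changes of 0.49 (adjusted p = 0.135) and 0.47 (adjusted p = 0.171). The H3 genes with a negative fold change were Hist2h3c1 and Hist2h3c2, near-copies in the Hist2 cluster with low levels.

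The sum of the 13 H4 genes was 147.2, 158.7, 94.9, 155.7, 243.7 and 161.3 CPM in the Atg5-deficient libraries and 99.5, 165.8, 88.0, 102.1 and 125.3 CPM in the wild-type libraries. Atg5-deficient replicate 5 alone lay above every wild-type library. The means were 160.3 ± 47.8 CPM (SD, n = 6) and 116.1 ± 30.9 CPM (SD, n = 5), a ratio of 1.38. Of 12 tested H4 genes, 0 were called by edgeR, against 4.43% of all genes called higher. An unadjusted p under 0.05 was found for 4, and 12 had a positive fold change, with a median of 0.47 on the log2 scale.

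Hist1h4k missed the threshold by little, at 12.9 ± 5.59 CPM against 6.48 ± 1.51 CPM (log2 fold change 0.99, SE 0.28, adjusted p = 0.0507 by edgeR). The H4 gene with the highest level, Hist1h4d, ranged from 35.3 through 47.5 to 81.1 CPM in the Atg5-deficient libraries and was at 28.1, 51.4, 25.2, 31.5 and 34.3 CPM in the wild-type libraries (log2 fold change 0.62, SE 0.22, adjusted p = 0.107). Hist4h4 was at 19.7 ± 4.05 CPM against 17.9 ± 3.98 CPM (log2 fold change 0.14, adjusted p = 0.679) and Hist2h4 at 16.04 ± 3.87 CPM against 15.98 ± 3.74 CPM (log2 fold change 0.01, adjusted p = 0.988). Differences between the classes in their response were not tested.

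**Figure D4:**
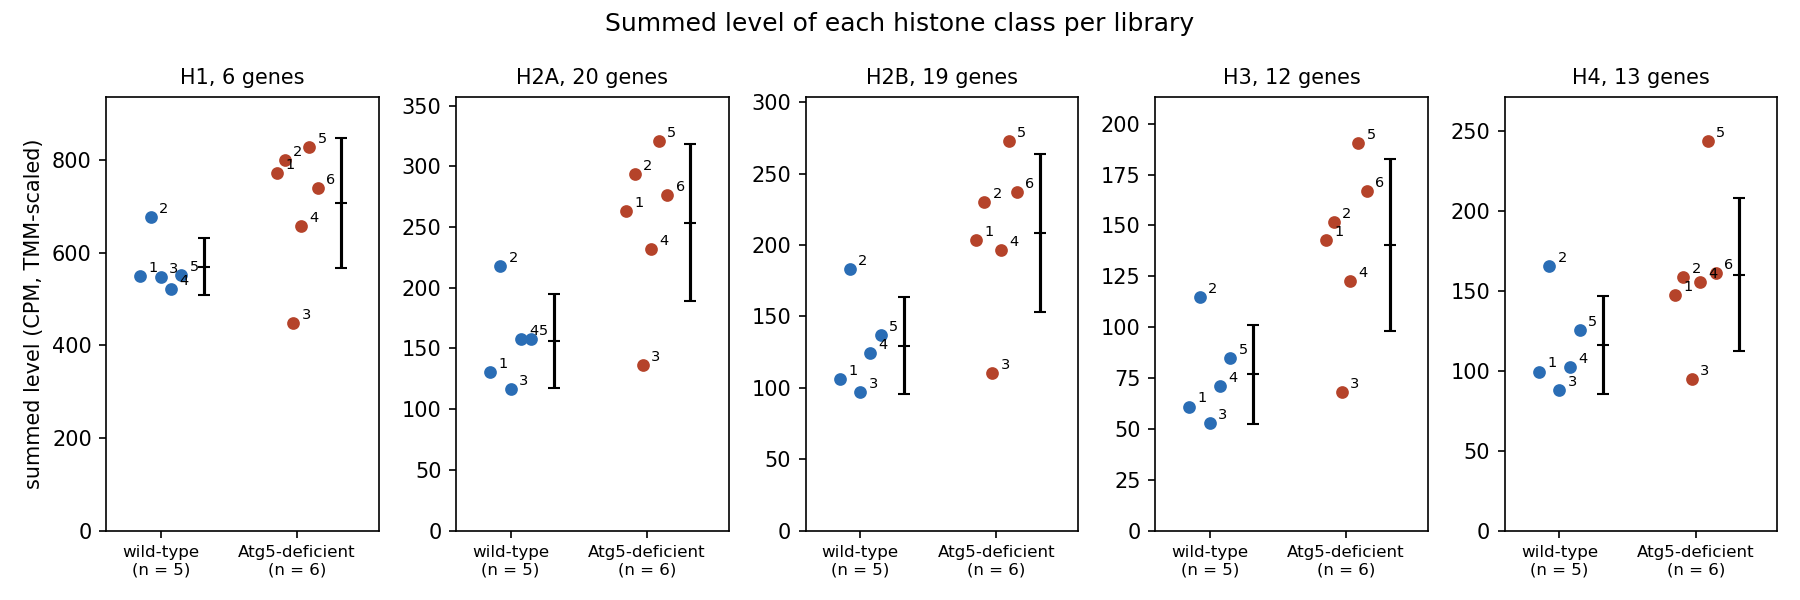
Summed level of each histone class in each library, in CPM with an axis from 0, with the replicate number beside each point and the mean and SD of each group beside the points. Atg5-deficient replicate 3 lies among the wild-type libraries or under them in every class, and wild-type replicate 2 is the highest of its group in every class.

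The ratio of classes within a library moved with the genotype label for H3 and H4. The H3 sum was 0.718 to 1.03 times the H4 sum in the Atg5-deficient libraries and 0.601 to 0.697 times in the wild-type libraries. These ranges do not overlap, and the means were 0.874 ± 0.128 (SD, n = 6) and 0.655 ± 0.0454 (SD, n = 5). Here Atg5-deficient replicate 3, the lowest of its group at 0.718, still lay above every wild-type library. The ratio was looked at with the results known and carries no test.

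With edgeR on all 11 libraries the calls lay in the Hist1 cluster, the largest. By symbol, 48 genes of this cluster were tested, 11 were called and 48 had a positive fold change. Their log2 fold changes ran from 0.13 to 1.62 with a median of 0.87. In the Hist2, Hist3 and Hist4 clusters together, 14 were tested, 0 were called, 8 had a positive fold change, and the median was 0.07. Over all genes tested, 4.43% were called higher, and 0 of 14 is near that share. Of the Hist3 genes, Hist3h2ba had a log2 fold change of 0.48 and the pseudogene Hist3h2bb-ps of 0.21. Within the Hist1 cluster the medians by class were 0.71 for H1, 1.05 for H2A, 0.87 for H2B, 0.94 for H3 and 0.49 for H4. Under other settings Hist2 and Hist3 genes were called too. DESeq2 called Hist2h2bb and Hist2h3b, 2 of its 28 calls. Limma-voom called these and also Hist2h2ac and Hist3h2ba, 4 of its 40. Hist2h2bb was called by edgeR without Atg5-deficient replicate 3, beside Hist2h3b, and without wild-type replicate 2, beside Hist2h2ac. Leaving out either of these libraries moves the groups apart by itself. With no filter on low counts edgeR called Hist2h3b, and with no scaling factor Hist2h2bb. The cluster counts are descriptions of genes that share libraries, and the difference between clusters was not tested.

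Transcript ends and near-copies bear on how these values can be read. Some GENCODE models end just after the stem-loop and others go on much further, as polyadenylated forms of histone mRNAs do. Among tested genes whose model ends within 200 bases past the stem-loop, 5 of 24 were called higher, with a median log2 fold change of 0.75. Among those whose model goes on beyond 200 bases, 1 of 18 was called, near the 4.43% of all genes called higher, with a median of 0.40. Among those whose model holds no stem-loop pattern, 5 of 20 were called, with a median of 0.94. Genes with at least 50% unique windows of 50 bases had 4 of 35 called and a median of 0.51. Genes with less had 7 of 27 called and a median of 0.94. No source used here gives the handling of reads that fit several genes, so the split of counts among near-copies is uncertain. If such reads were shared out among near-copies, class sums depend on it less than single genes do. If they were dropped, class sums lack them too. For H2A and H2B genes, those with the promoter octamer had 3 of 11 called and a median of 0.99, and those without it 4 of 17 and 0.81. All these counts stand beside 4.43% of all genes called higher. They are small, and differences by transcript end, uniqueness or octamer were not tested.

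Genes that make, process or destroy histone mRNA were called at a share near that of all genes, 2 of 30 tested (6.67%) higher against 4.43% of all genes. Of 10 genes for histone gene transcription, 0 were called in either direction by edgeR, and the median log2 fold change was 0.04. Npat, the cyclin E-Cdk2 target that turns on histone transcription, was at 31.8 ± 2.06 CPM against 32.8 ± 2.66 CPM (log2 fold change -0.05). Casp8ap2, a part of the histone locus body, had a log2 fold change of 0.05. The cyclin E genes Ccne1 and Ccne2 of the same list had 0.85 (adjusted p = 0.0901 by edgeR) and 0.64 (adjusted p = 0.124). Ccne1 was called in 2 of the 11 fits that leave out 1 library. Of the 10 genes, 6 had a positive fold change. Of 11 tested genes of 3′ end processing, 1 was called higher, and the median was 0.08. Slbp was at a mean of 73.2 ± 11.02 CPM under Atg5 deficiency, beside 63.0 ± 6.03 CPM, and was not called (log2 fold change 0.22, SE 0.11, adjusted p = 0.234). Lsm11, a protein of the U7 particle, had a log2 fold change of -0.33 (adjusted p = 0.168). The called gene was Cpsf2, a subunit of the cleavage complex, with a log2 fold change of 0.37 (SE 0.10, adjusted p = 0.0432), and its call was kept in 2 of the 11 fits that leave out 1 library. The U7 RNA gene Rnu7 had 80 counts in all and was not tested.

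Of 9 genes of histone mRNA translation and decay, 1 was called higher, and the median was 0.02. Mif4gd, which binds Slbp and promotes translation of histone mRNA, was at 68.1 ± 9.88 CPM against 46.7 ± 5.30 CPM (log2 fold change 0.54, SE 0.11, adjusted p = 0.0139 by edgeR). That call was kept in all 11 fits that leave out 1 library. Eri1, the exonuclease that trims the stem-loop, had a log2 fold change of -0.10. Of 18 histone chaperones, 1 was called higher, against 4.43% of all genes. Chaf1a, the large subunit of the CAF-1 complex that deposits H3 and H4 behind the replication fork, was at 17.3 ± 4.65 CPM against 9.16 ± 3.66 CPM (log2 fold change 0.92, SE 0.25, adjusted p = 0.0472). This call was kept in 2 of the 11 fits that leave out 1 library.

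Most histone variants are made from single genes with polyadenylated mRNA and are not confined to S phase. Of 9 tested, 2 were called higher, against 4.43% of all genes, and the median log2 fold change was 0.15. H2afz, the gene of H2A.Z, was at 94.7 to 140.7 CPM in the Atg5-deficient libraries and 66.0 to 88.1 CPM in the wild-type libraries, with no overlap (log2 fold change 0.58, SE 0.11, adjusted p = 0.00976 by edgeR). H1f0, the H1 of resting and differentiated cells, had a log2 fold change of 0.68 (SE 0.17, adjusted p = 0.0316), a call kept in 4 of those 11 fits. H2afx, whose protein is phosphorylated at DNA breaks, had 0.59 (adjusted p = 0.0570). H3f3a and H3f3b, both encoding H3.3, had log2 fold changes of -0.01 and 0.07.

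Genes of the cell cycle were measured beside them. Of 25 S phase genes, 10 were called higher and 0 lower, against 4.43% and 2.41% of all genes, with a median log2 fold change of 0.60. Lig1, the ligase that joins Okazaki fragments, had 0.69 (adjusted p = 0.00482 by edgeR). Tk1, thymidine kinase, had 1.03 (adjusted p = 0.00663), Pola1, the catalytic subunit of DNA polymerase alpha, 0.62 (adjusted p = 0.0189), and Clspn, a checkpoint adaptor at replication forks, 1.05 (adjusted p = 0.0221). Of 15 genes of G2 and mitosis, 15 were called higher, against the same 4.43%, with a median of 1.31. These included Mki67, the gene of the proliferation marker Ki-67 (log2 fold change 1.31), and Cdk1, the mitotic kinase (1.31). They also included Aurkb (1.70), a kinase of chromosome segregation, and Top2a (1.35), a topoisomerase. The lists were chosen with results of these data known and are no independent evidence of their direction.

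Across libraries the summed level of the 64 core histone genes stood with the S phase sum. The core sum was 756.6, 833.9, 409.9, 707.1, 1028 and 841.6 CPM in the Atg5-deficient libraries and 397.1, 681.6, 354.6, 455.6 and 504.8 CPM in the wild-type libraries. The S phase sum was 938.7, 1098, 711.5, 1015, 1285 and 1039 CPM and 669.1, 865.1, 717.8, 744.4 and 746.5 CPM in the same order. Atg5-deficient replicate 3 was the lowest and replicate 5 the highest of its group in both sums, and wild-type replicate 2 the highest of its group in both. The core sum was 0.741 ± 0.0916 (SD, n = 6) times the S phase sum in Atg5-deficient libraries and 0.633 ± 0.109 (SD, n = 5) times in wild-type libraries, and the groups overlapped.

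Against the genes of G2 and mitosis the ratio went the other way. Their sum was 768.6, 762.8, 297.0, 635.9, 780.6 and 832.5 CPM in the Atg5-deficient libraries and 257.2, 323.8, 216.2, 251.8 and 333.9 CPM in the wild-type libraries. Core histone RNA was 0.984 to 1.38 times this sum in the Atg5-deficient libraries and 1.51 to 2.11 times in the wild-type libraries, with no overlap. The group means were 1.15 ± 0.163 (SD, n = 6) and 1.72 ± 0.243 (SD, n = 5). Mki67 alone gave a mean of 364.4 of the 679.6 CPM of this sum in the Atg5-deficient libraries. In the wild-type libraries it gave 147.5 of 276.6 CPM, so it was a large and similar part of the sum in both groups. All 15 genes of the list were called higher, and the ratio without Mki67 was not computed. Atg5-deficient replicate 3, with a mitotic sum of 297.0 CPM between the wild-type values, had the highest ratio of its group at 1.38. The sums mix genes of unlike length, so only their change between libraries can be read.

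**Figure D5:**
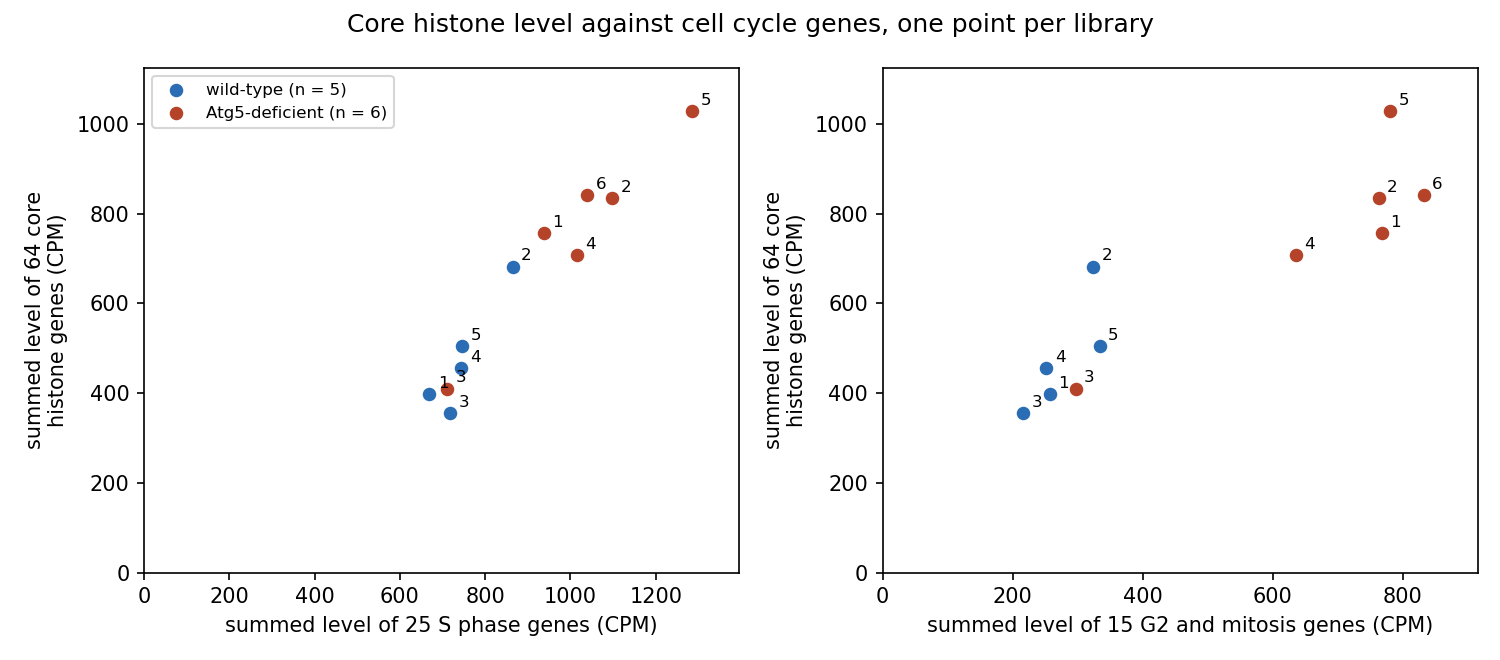
Summed level of the 64 core histone genes of each library (CPM) against the summed level of 25 S phase genes (left) and 15 genes of G2 and mitosis (right), with the replicate number beside each point and axes from 0. Wild-type replicate 2 reaches 681.6 CPM of core histone RNA at an S phase sum of 865.1 CPM, near the Atg5-deficient libraries at the left. At the right its mitotic sum of 323.8 CPM is under those of the Atg5-deficient libraries except replicate 3, which is at 297.0 CPM.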

How the data were processed

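RNA of 11 libraries, 6 labelled Atg5-deficient and 5 wild-type, was measured by RNA-seq with a stranded total RNA kit, per the labels' protocols. The authors deposited raw counts of reads per Ensembl gene. STAR, featureCounts and the build GRCm38 are named in the processing notes of the submitters, with no versions; these are given per the labels. No source used here gives the annotation release, the strand setting or the treatment of reads with several matches. A gene overlapped by another could therefore hold its reads, and antisense reads cannot be told apart.

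Gene symbols, coordinates and exon lengths came from GENCODE M21 (GRCm38). The histone genes and the other gene lists were chosen with earlier results of these data known. The table had 56748 gene rows and 0 columns of other samples. The filterByExpr rule (at least 10 counts in enough libraries and 15 in total) left 17987 genes. After TMM scaling, the genotypes were compared without covariates by edgeR's quasi-likelihood F test with robust settings (edgeR 4.0.16, R 4.3.3), with Benjamini-Hochberg adjustment over all 17987 genes and a threshold of 0.05. The common biological coefficient of variation was 0.341, and the fit was checked on simulated data. The SE was taken from the log2 fold change and its F statistic. CPM values use the scaled library sizes. They sum over all genes of a class, untested ones included, and class sums carry no test. Alternatives were relative log expression, upper-quartile and no scaling, DESeq2 1.42.0, limma-voom with sample weights (limma 3.58.1), other filters, the 8 libraries with consecutive numbers, and each library left out. Named in the text were all called histone genes, the 3 with the highest mean CPM in each class, those of Hist3 and Hist4, the testis genes Hist1h1t, Hist1h2aa and Hist1h2ba, and set members of the other lists. Further genes (Hist1h4k, Hist1h2al, Hist2h3b, Hist2h3c1, Hist2h3c2, Ccne1, Ccne2, NK cell markers and overlapping partners) were named after their values were seen. Counts by transcript end, uniqueness, octamer and cluster, and the ratios of sums, were also chosen then.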

Additional observations from a re-analysis of the deposited data

Results flagged for a closer look

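Of 62 groups examined (31 genes and class sums in each genotype), 6 had a library far from the others, and chance flags about 1 in 20. All involve the same pair of libraries. Atg5-deficient replicate 3 was far below the rest of its group for Hist1h1b (15.91 CPM, with the next library at 42.58 CPM), for Hist1h1d (37.8 CPM, next 103.1 CPM) and for Hist2h2ac (25.79 CPM, next 36.4 CPM). Wild-type replicate 2 was far above the rest of its group for Hist1h1c (445.3 CPM, next 369.1 CPM), for Hist2h2ac (46.34 CPM, next 26.03 CPM) and for the summed H1 level (677.9 CPM, next 552.1 CPM).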

How the results depend on the processing

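The count of 11 histone genes called higher changed with the test and with the libraries. DESeq2 called 28 and limma-voom with sample weights 40, beside 7.75% and 10.8% of all genes, and the 8 libraries with consecutive numbers gave 0. Leaving out 1 library at a time gave 1 to 33 calls, beside 2.18% to 7.96% of all genes called higher. Relative log expression factors gave 11, upper-quartile factors 9, no filter 9 and a strict filter 12. The shares of all genes called higher were 4.58%, 3.25%, 1.88% and 6.18% in the same order. No scaling, added after seeing the data, gave 16, beside 5.35% of all genes. With upper-quartile factors 3.25% of all genes were higher and 3.81% lower, against 4.43% and 2.41%. None of these settings called a histone gene lower. The log2 ratio of the H1 sums rose from 0.31 to 0.60 without Hist1h1c, a setting chosen after seeing the data; every other setting kept each class ratio within 1 SD. Fold changes near 0 changed sign. Hist3h2a, at -0.06 on the log2 scale, ran from -0.106 to 0.0116 when 1 library was left out, and was positive without Atg5-deficient replicate 3 and without wild-type replicate 2. Hist2h4, at 0.01, came to -0.0678 with upper-quartile factors and to -0.0070 with the strict filter, and ran from -0.128 to 0.140 when 1 library was left out. The cause was not tested. No paired analysis was possible because the labels give no replicate numbers, and numbers in accession order pair nothing. Counting error limits the 8 untested genes, which had 5 to 78 counts in all.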
